A study of Homo sapiens with 12 samples.

Results

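The cholesterol genes examined here are 30 named genes for the synthesis, uptake, intracellular transport and export of sterol, taken by symbol from the deposited count tables. All 30 were listed in both cell lines, among 17640 genes listed for HepG2 and 18434 for Huh7, of which 15781 were listed for both. They fall into 6 role groups, of which the 3 for synthesis hold 19 enzymes. After the removal of genes with few counts, 29 of the 30 could be tested in HepG2, where INSIG1 was left out, and 30 of 30 in Huh7.

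HepG2 and Huh7 are established human hepatoma lines with no engineered allele, transfected either with UBL5 siRNA, which silences the ubiquitin-like protein UBL5, or, as the control, with a non-target Ctrl-siRNA in the same lipid reagent. Each line gave 3 libraries with UBL5 siRNA (knockdown, KD) and 3 with Ctrl-siRNA, harvested 52 h after transfection by the labels, while a figure legend of the study gives a slightly shorter time. RNA-Seq libraries were made from polyadenylated RNA with a strand-specific kit, and the deposited values are whole-number counts of reads per gene. Whether the 3 libraries of a group came from separate transfections is not stated, so a p-value here weighs a change against library-to-library spread, which may be technical.

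Cholesterol is built from acetyl-CoA by way of mevalonate, farnesyl diphosphate, squalene and lanosterol. Its synthesis is tuned by the transcription factor SREBP2, the product of SREBF2, which SCAP carries out of the endoplasmic reticulum (ER) when sterol is scarce and which the INSIG proteins hold back when sterol is plentiful. Excess sterol is exported by ABC transporters, whose genes are driven by the oxysterol receptors of the LXR family, and hepatocytes are the cells that secrete cholesterol into bile.

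Total counts ran from 19469574 to 29744471 per library. UBL5 itself had 6.88, 4.31 and 2.8 CPM (counts scaled to the size of the library) with UBL5 siRNA and 60.4, 55.5 and 58.7 CPM with Ctrl-siRNA in HepG2, and 6.45, 6.67 and 5.8 CPM with UBL5 siRNA and 68.1, 70.8 and 67.1 CPM with Ctrl-siRNA in Huh7, so the silenced gene was low in every library labelled as silenced. The 8 hepatocyte markers examined were all listed in both lines, summing to 37060 to 40460 CPM in KD and 38810 to 41790 CPM in control HepG2 libraries, and to 22040 to 22590 CPM in KD and 21710 to 22490 CPM in control Huh7 libraries. Of 5 leukocyte markers, PTPRC, CD3E and CD68 were not listed in either line, and the list summed to 4.66 to 7.42 CPM in KD and 0.169 to 1.01 CPM in control HepG2 libraries, and to 4.21 to 5.22 CPM in KD and 1.55 to 1.80 CPM in control Huh7 libraries. Mitochondrial transcripts took 2.75% to 3.61% of counts in KD and 1.91% to 2.36% in control HepG2 libraries, and 2.66% to 3.72% in KD and 2.46% to 3.30% in control Huh7 libraries. Of 5 fibroblast markers, all listed, the summed level was 9.86 to 21.9 CPM in KD and 7.93 to 14.1 CPM in control HepG2 libraries, and 17.4 to 25.8 CPM in KD and 32.2 to 36.2 CPM in control Huh7 libraries. Of 4 endothelial markers, KDR and VWF were not listed in either line, and the list did not exceed 6.51 CPM in any library, with overlap between the siRNA groups of each line. The part of any of these in the results was not tested. HepG2 Ctrl-siRNA replicate 3 differed from the other 5 HepG2 libraries in having 1773 genes at 0 counts, against 159 to 233, and results in HepG2 are therefore also given without both libraries numbered 3. The biological coefficient of variation was 0.189 in HepG2 and 0.0663 in Huh7, so a change had to be larger to pass the test in HepG2.

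The promoters are shown first. Any link between their letters and the changes given below was not tested. RefSeq promoter windows of GRCh38.p14, from 250 bases before to 50 bases after each annotated start, were found for 27 of the 30 members (ACAT2, FDFT1 and SQLE had none). They were searched on both strands for CCAAT, the box bound by NF-Y, a factor known to act beside SREBP2, and for TCACNCCAC, a form of the sterol response element. The windows below belong to an enzyme that rose strongly in both lines (HMGCS1), an enzyme with 4 CCAAT boxes that rose (MSMO1), the synthesis enzyme that fell in both lines (LSS), the gene of the transcription factor (SREBF2), the feedback gene that one line nearly lacked (INSIG1) and a sterol exporter that fell (ABCG8). They lie at chr5:43313363-43313662 on the minus strand, chr4:165327419-165327718 on the plus strand, chr21:46228725-46229024 on the minus strand, chr22:41832855-41833154 on the plus strand, chr7:155297628-155297927 on the plus strand and chr2:43838721-43839020 on the plus strand. Each is written 5′ to 3′ along its gene, and capitals mark CCAAT (or ATTGG on the other strand) and, in SREBF2 alone, the sterol element.
HMGCS1 promoter: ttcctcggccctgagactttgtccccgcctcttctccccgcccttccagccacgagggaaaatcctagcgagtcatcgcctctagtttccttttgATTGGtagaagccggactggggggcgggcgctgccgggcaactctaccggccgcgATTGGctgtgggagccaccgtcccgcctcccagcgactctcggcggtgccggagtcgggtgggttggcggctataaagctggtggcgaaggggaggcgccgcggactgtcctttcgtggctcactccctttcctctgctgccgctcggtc
MSMO1 promoter: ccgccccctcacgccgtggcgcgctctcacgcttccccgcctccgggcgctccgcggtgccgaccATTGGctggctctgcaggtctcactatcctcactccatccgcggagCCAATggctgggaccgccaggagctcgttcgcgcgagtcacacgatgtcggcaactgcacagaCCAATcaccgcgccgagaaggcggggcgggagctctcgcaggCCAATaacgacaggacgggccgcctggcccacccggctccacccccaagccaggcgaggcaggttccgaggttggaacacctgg
LSS promoter: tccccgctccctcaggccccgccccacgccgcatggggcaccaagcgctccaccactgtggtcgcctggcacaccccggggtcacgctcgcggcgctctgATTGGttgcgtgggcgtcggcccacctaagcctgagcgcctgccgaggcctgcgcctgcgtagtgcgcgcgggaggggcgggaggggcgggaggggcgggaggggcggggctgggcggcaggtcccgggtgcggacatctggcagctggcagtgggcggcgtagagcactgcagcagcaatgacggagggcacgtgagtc
SREBF2 promoter: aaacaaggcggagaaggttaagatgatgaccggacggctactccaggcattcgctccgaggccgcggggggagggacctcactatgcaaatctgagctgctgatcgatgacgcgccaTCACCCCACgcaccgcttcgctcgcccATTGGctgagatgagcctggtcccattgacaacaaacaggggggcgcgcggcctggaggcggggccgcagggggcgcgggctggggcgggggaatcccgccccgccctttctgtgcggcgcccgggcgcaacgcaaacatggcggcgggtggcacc
INSIG1 promoter: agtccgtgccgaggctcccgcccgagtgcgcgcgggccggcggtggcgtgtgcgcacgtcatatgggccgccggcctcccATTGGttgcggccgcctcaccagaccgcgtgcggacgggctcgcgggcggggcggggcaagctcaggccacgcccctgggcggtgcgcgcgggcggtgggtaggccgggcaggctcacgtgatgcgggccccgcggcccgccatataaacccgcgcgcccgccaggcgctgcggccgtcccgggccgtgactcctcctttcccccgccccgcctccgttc
ABCG8 promoter: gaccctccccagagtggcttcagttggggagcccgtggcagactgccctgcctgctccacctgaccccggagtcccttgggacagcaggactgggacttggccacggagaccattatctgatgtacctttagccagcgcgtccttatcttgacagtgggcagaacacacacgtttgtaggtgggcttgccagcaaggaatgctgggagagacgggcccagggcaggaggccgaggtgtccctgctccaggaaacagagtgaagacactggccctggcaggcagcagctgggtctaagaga

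A CCAAT box lay in a window of 18 of the 27 matched members, while 39.72% of 27305 genes with a window had one. It was found in 7 of 9 matched members that rose in both lines, in 2 of 4 that fell in both lines (LSS and MYLIP), and in 9 of 14 of the others. MVK and NSDHL had the most in 1 window, with 5 each. The sterol element of the searched form was found in 1 member, SREBF2, at 133 bases before the start, and in 1.39% of all genes. The windows of ABCG5 (chr2:43838790-43839089 on the minus strand) and ABCG8 overlap, since the genes are read away from each other, and neither holds a CCAAT box or the GC box GGGCGG, which 22 of 27 members and 48.3% of all genes had. CACGTG, the E-box, was found in 5 of 27 members and in 8.77% of all genes. A match describes the letters of a window and was not tested for binding.

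Most of the synthesis genes that changed were higher with UBL5 siRNA, while lanosterol synthase and the sterol exporters ABCG5 and ABCG8 were lower, in both lines. A gene was called changed at an adjusted p under 0.05 in the quasi-likelihood test of edgeR, with adjustment over all genes tested. In HepG2, 12 members rose and 4 fell of 29 tested, where 16.5% of all 15755 genes rose, 20.1% fell and 36.7% changed in either direction (19.3%, 23.8% and 43% of the protein-coding genes). In Huh7, 19 rose and 6 fell of 30 tested, where 34.9% of all 16965 genes rose, 36.4% fell and 71.3% changed (38.2%, 37.9% and 76.1% of the protein-coding genes). The KD libraries of 13 members lay wholly above and those of 5 wholly below their controls in HepG2, beside 26.1%, 26.9% and, for either, 53% of all genes, and in Huh7 19 and 6 members did so, beside 35.9%, 38% and 73.9%. The median log2 fold change of the members was 0.26 in HepG2 and 0.29 in Huh7, beside medians of 0.011 and −0.0084 over all genes tested in these lines. Without both HepG2 libraries numbered 3, 14 members rose and 4 fell in HepG2, where 3427 of 15986 genes rose and 3743 fell. The HepG2 rises numbered 9 without UBL5 siRNA replicate 2, 10 without UBL5 siRNA replicate 3 or Ctrl-siRNA replicate 1, and 11 without Ctrl-siRNA replicate 2. The rises numbered 13 without UBL5 siRNA replicate 1 and 14 without Ctrl-siRNA replicate 3. The HepG2 falls numbered 2 without Ctrl-siRNA replicate 1 or 2 or without UBL5 siRNA replicate 2 or 3, and 3 without UBL5 siRNA replicate 1. Among these fits without 1 library, the fewest of all genes rose (1834 of 16123) and fell (1985) without UBL5 siRNA replicate 2. The most rose (3378 of 16157) and fell (3892) without Ctrl-siRNA replicate 3. When replicate numbers entered the HepG2 fit as a block, 16 members rose and 4 fell, where 2982 of 15755 genes rose and 3449 fell.

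Of the 29 members tested in both lines, 11 rose in both (HMGCS1, IDI1, FDFT1, SQLE, CYP51A1, MSMO1, SC5D, DHCR7, SREBF2, NPC1L1 and ABCA1) and 4 fell in both (LSS, ABCG5, ABCG8 and MYLIP). These were 37.9% and 13.8% of the members, where 14.5% of all genes rose in both lines and 16.4% fell in both. The share of members that fell in both was thus near that of all genes. No member was called in opposite directions. Among members, 93.8% of the 16 calls in HepG2 were therefore shared with Huh7, and 60% of the 25 calls in Huh7 with HepG2, while genes called in the same direction in both lines were 80.9% of HepG2 calls and 43.1% of Huh7 calls over all genes. Across the 29 members, the log2 fold changes of the lines correlated at 0.856 (Pearson, across genes, which share the libraries and are not replicates), beside 0.671 across all 14518 genes tested in both lines. In bulk RNA, fewer cells that express a gene and less RNA of it per cell cannot be told apart.

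**Figure D1:**
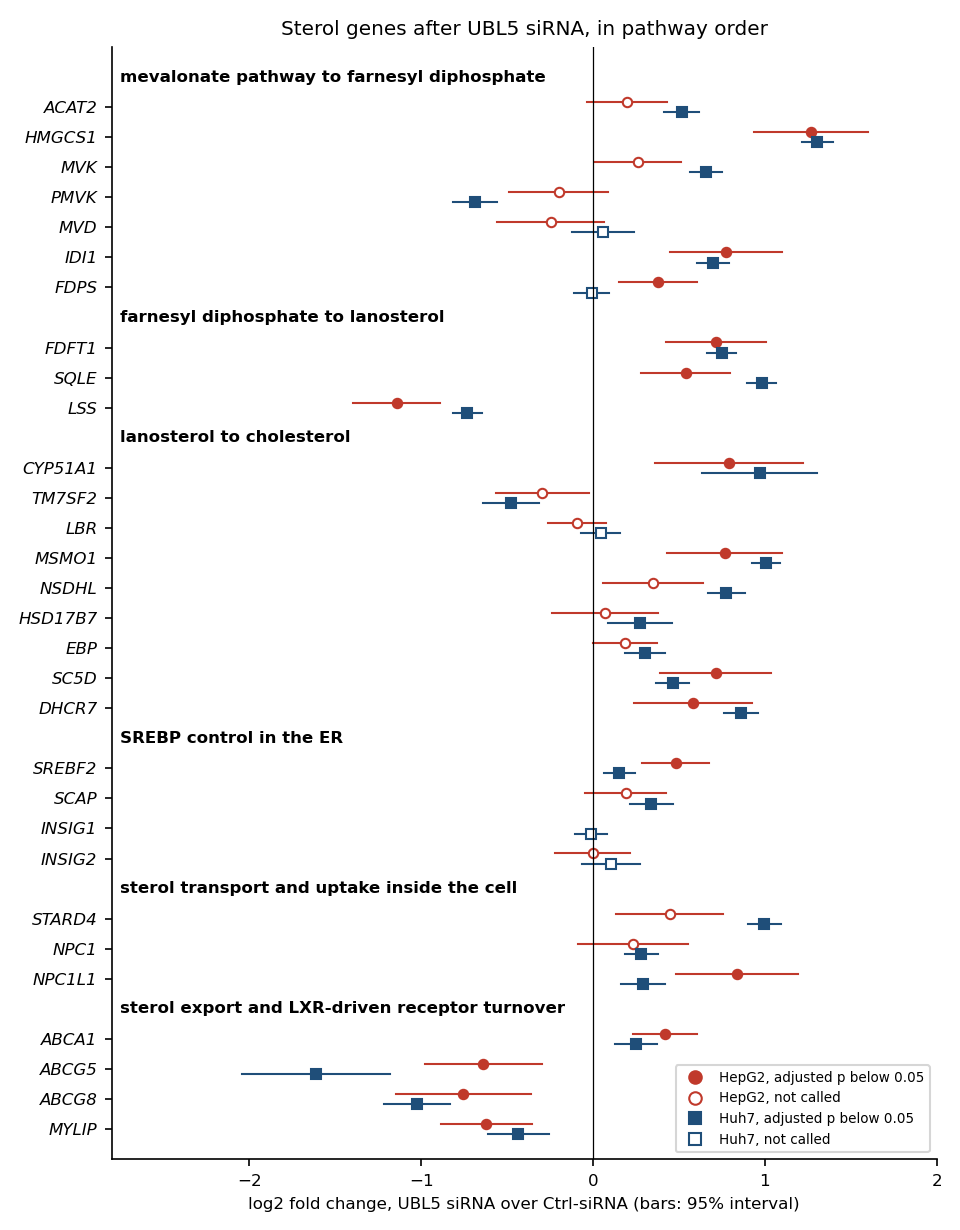
Log2 fold change (UBL5 siRNA over Ctrl-siRNA, horizontal axis) of the 30 members in pathway order, HepG2 as red circles above Huh7 as blue squares, with 95% intervals as bars and filled symbols for an adjusted p under 0.05. LSS (−1.14 in HepG2) stands on the left between SQLE and CYP51A1 on the right, and ABCG5, ABCG8 and MYLIP stand on the left in both lines.

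The synthesis enzymes took a larger share of all counts after UBL5 siRNA. The 19 enzymes together held 0.32% ± 0.039 of counts with UBL5 siRNA and 0.236% ± 0.0305 with Ctrl-siRNA in HepG2 (SD, n = 3 each), and 0.843% ± 0.00226 with UBL5 siRNA and 0.491% ± 0.00867 with Ctrl-siRNA in Huh7 (SD, n = 3 each). The libraries of the siRNA groups did not overlap in either line. HMGCS1 alone held 0.439% ± 0.00397 of counts with UBL5 siRNA and 0.188% ± 0.00671 with Ctrl-siRNA in Huh7 (SD, n = 3 each). Without HMGCS1, the other 18 enzymes held 0.272% ± 0.0291 with UBL5 siRNA and 0.215% ± 0.0277 with Ctrl-siRNA in HepG2, which is 1.26 times as much, and 0.404% ± 0.00271 with UBL5 siRNA and 0.303% ± 0.002 with Ctrl-siRNA in Huh7, which is 1.33 times as much (SD, n = 3 each). These sums were chosen after the values had been seen.

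The mevalonate steps did not move as 1 block. Of the 7 genes from ACAT2 to FDPS, 3 rose and none fell in HepG2, and 4 rose and 1 fell in Huh7, so the share called was near the 36.7% of all genes (43% of protein-coding genes) in HepG2 and the 71.3% in Huh7. HMGCS1, IDI1 and, in Huh7, MVK and ACAT2 rose, while PMVK and MVD, which act in between, did not rise in either line.

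HMGCS1, the cytosolic synthase that makes HMG-CoA, had 375, 525 and 579 CPM with UBL5 siRNA and 169.6, 224 and 222 CPM with Ctrl-siRNA in HepG2. In Huh7, HMGCS1 had 4517, 4562 and 4462 CPM with UBL5 siRNA and 1864, 1853 and 1759 CPM with Ctrl-siRNA. Every KD library lay above every control library of its line, at very different levels in the 2 lines. The change was 2.4-fold in HepG2 (log2 fold change 1.27, SE 0.17, adjusted p = 0.000738) and 2.47-fold in Huh7 (log2 fold change 1.31, SE 0.045, adjusted p = 1.28e-09), the highest fold of the members tested in each line. The fold did not differ detectably between the lines (difference −0.012, 95% interval −0.39 to 0.36, adjusted p = 0.976). HMGCS1 shares 37.7% of its exon bases with an unnamed antisense gene, and since the strand setting of the counting is not given, its values are uncertain to that extent.

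IDI1, the isomerase of isopentenyl diphosphate, had 146, 184 and 196 CPM with UBL5 siRNA and 82, 99.9 and 125 CPM with Ctrl-siRNA in HepG2. Its levels in Huh7 were 236, 239.5 and 238 CPM with UBL5 siRNA and 155, 144 and 140.3 CPM with Ctrl-siRNA. The siRNA groups were apart in both lines, by 1.71-fold in HepG2 (log2 fold change 0.77, SE 0.17, adjusted p = 0.00671) and 1.62-fold in Huh7 (log2 fold change 0.70, SE 0.048, adjusted p = 1.53e-07). FDPS, the synthase of farnesyl diphosphate, had 91.7, 103 and 107 CPM with UBL5 siRNA and 66, 81.8 and 84.6 CPM with Ctrl-siRNA in HepG2. In Huh7, FDPS had 163, 165 and 154 CPM with UBL5 siRNA and 165, 167 and 152 CPM with Ctrl-siRNA. FDPS was thus higher in every HepG2 KD library (log2 fold change 0.38, SE 0.12, adjusted p = 0.0328), and its Huh7 groups overlapped (log2 fold change −0.0083, SE 0.051, adjusted p = 0.893). In HepG2, FDPS no longer passed the test without control library 1 (adjusted p = 0.101) or 2 (0.0587) or KD library 2 (0.0925) or 3 (0.0856).

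PMVK, the kinase of phosphomevalonate, went the other way. It had 29.5, 33 and 30.7 CPM with UBL5 siRNA and 49.4, 48.2 and 52.3 CPM with Ctrl-siRNA in Huh7, with no overlap (log2 fold change −0.69, SE 0.065, adjusted p = 2.14e-06). The HepG2 libraries held 12.4, 12 and 11.5 CPM with UBL5 siRNA and 14.2, 11.7 and 15.3 CPM with Ctrl-siRNA, which overlapped (log2 fold change −0.20, SE 0.15, adjusted p = 0.328). MVK, the mevalonate kinase that acts just before PMVK, rose 1.58-fold in Huh7 (log2 fold change 0.66, SE 0.047, adjusted p = 2.02e-07). Its log2 fold change in HepG2 was 0.26 (adjusted p = 0.146, and 0.0415 with the replicate block). ACAT2, the cytosolic thiolase at the head of the pathway, rose 1.43-fold in Huh7 (adjusted p = 3.94e-06), and its log2 fold change in HepG2 was 0.20 (adjusted p = 0.236, and 0.0353 with the replicate block). MVD, the decarboxylase that follows PMVK, was not called in HepG2 (−0.25, adjusted p = 0.261) or in Huh7 (0.055, adjusted p = 0.604). ACAT2 shares 22.2% of its exon bases with antisense genes.

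**Figure D2:**
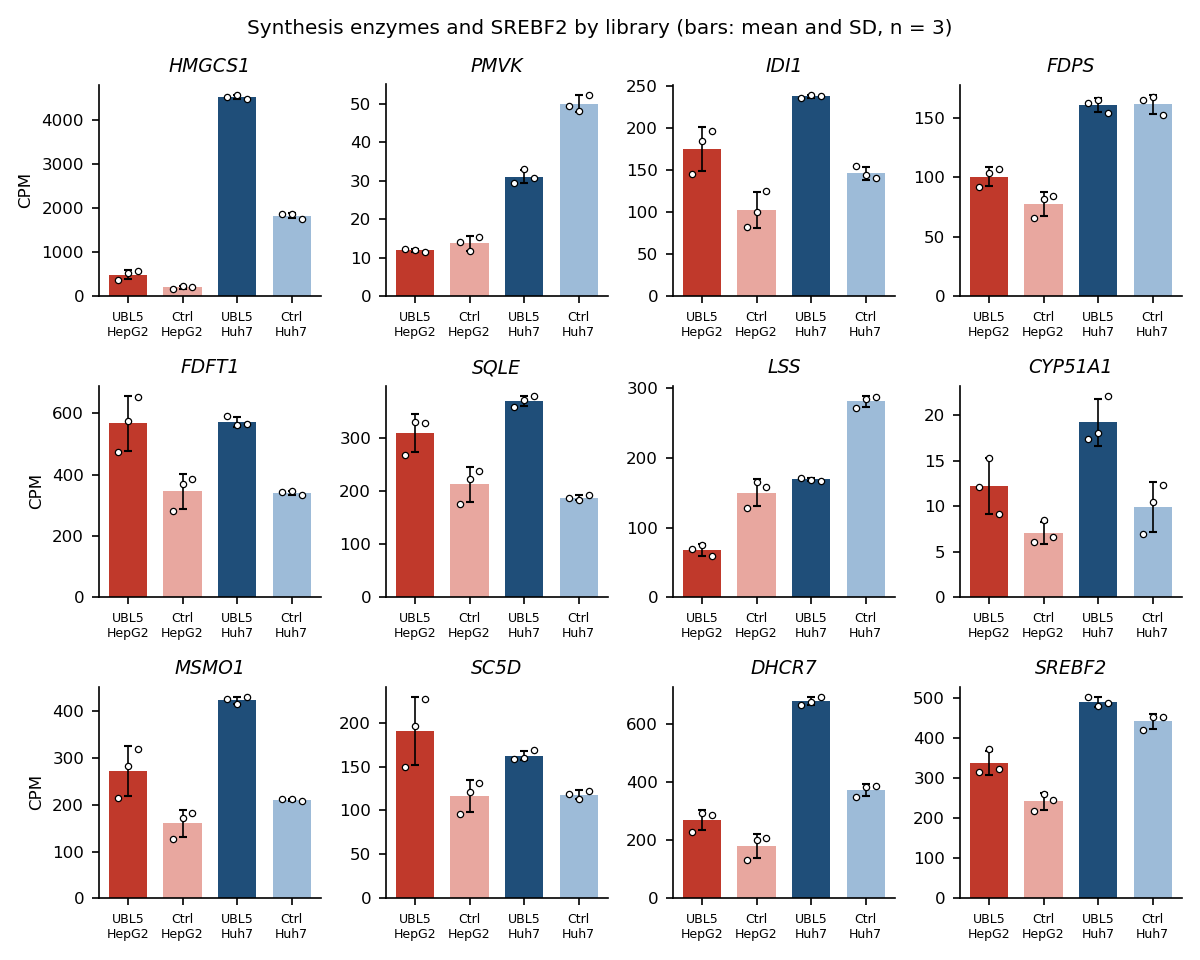
Level in CPM (vertical axis, starting at 0, own scale in each panel) of 11 synthesis enzymes and SREBF2 in the UBL5 siRNA and Ctrl-siRNA libraries of HepG2 (reds) and Huh7 (blues), with bars for the mean, whiskers for the SD and points for the 3 libraries. LSS is the panel in which the UBL5 siRNA libraries lie below all controls in both lines, whereas those of PMVK do so in Huh7 and overlap with the controls in HepG2.

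The steps from farnesyl diphosphate to lanosterol split between their second and last enzyme. All 3 genes were called in both lines, where 36.7% of all genes were called in HepG2 and 71.3% in Huh7. FDFT1 and SQLE rose in both lines, as did 14.5% of all genes, and LSS fell in both, as did 16.4%. FDFT1, squalene synthase, had 473, 573 and 654 CPM with UBL5 siRNA and 281, 369 and 385 CPM with Ctrl-siRNA in HepG2. Huh7 libraries held 591, 560.4 and 564 CPM of FDFT1 with UBL5 siRNA and 342, 346 and 333 CPM with Ctrl-siRNA. FDFT1 was higher in every KD library, by 1.64-fold in HepG2 (log2 fold change 0.71, SE 0.15, adjusted p = 0.00574) and 1.68-fold in Huh7 (log2 fold change 0.75, SE 0.043, adjusted p = 3.87e-08). SQLE, the epoxidase that oxygenates squalene, had 267, 329.9 and 328 CPM with UBL5 siRNA and 175, 223 and 238 CPM with Ctrl-siRNA in HepG2. In Huh7, SQLE had 358, 371 and 378 CPM with UBL5 siRNA and 187, 182 and 192 CPM with Ctrl-siRNA. Its groups were apart in both lines, by 1.45-fold in HepG2 (log2 fold change 0.54, SE 0.13, adjusted p = 0.0121) and 1.97-fold in Huh7 (log2 fold change 0.98, SE 0.044, adjusted p = 6.35e-09).

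LSS, the cyclase that folds epoxidised squalene into lanosterol, had 69.9, 75.2 and 59.1 CPM with UBL5 siRNA and 128, 165 and 158 CPM with Ctrl-siRNA in HepG2. In Huh7, LSS had 172, 169 and 167 CPM with UBL5 siRNA and 272, 284 and 288 CPM with Ctrl-siRNA. Every KD library was below every control library of its line. LSS fell to 0.453 of the control level in HepG2 (log2 fold change −1.14, SE 0.13, adjusted p = 0.000349) and to 0.602 of it in Huh7 (log2 fold change −0.73, SE 0.043, adjusted p = 4.35e-08). It remained called in each line without any single library and in each other fit tried. Its fall in HepG2 and that in Huh7 differed by −0.38 on the log2 scale, which did not pass the test (adjusted p = 0.0624).

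The opposite movement of neighbouring steps could be read within each library as a ratio of counts, which needs no scaling between libraries. SQLE counts per LSS count were 3.82, 4.39 and 5.54 with UBL5 siRNA and 1.37, 1.35 and 1.5 with Ctrl-siRNA in HepG2. In Huh7 they were 2.09, 2.19 and 2.26 with UBL5 siRNA and 0.687, 0.641 and 0.667 with Ctrl-siRNA. Thus the ratio was above all controls in every KD library, and its log2 shift was 1.69 in HepG2 and 1.71 in Huh7 (exact permutation test, two-sided p = 0.1 in each line, the smallest that 3 libraries against 3 allow). In Huh7 controls LSS had more counts than SQLE, and in Huh7 KD libraries SQLE had more. Counts are not corrected for gene length, and per kb of exon SQLE (43.4 CPM) was already above LSS (38.9 CPM) in Huh7 controls. The ratio was chosen after the values of both genes had been seen.

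**Figure D3:**
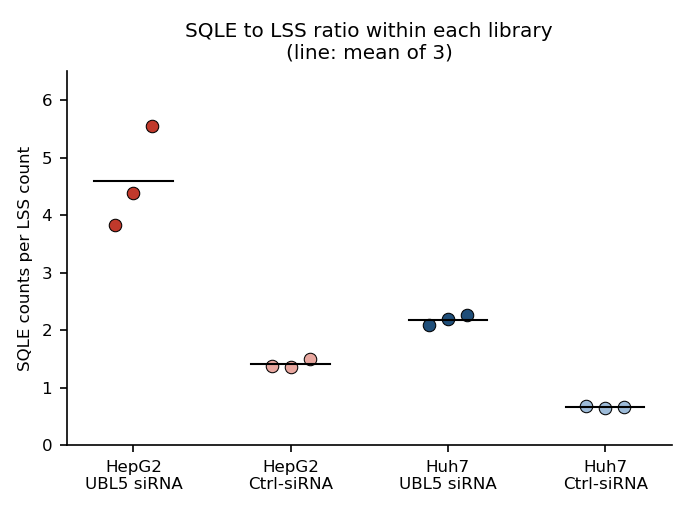
SQLE counts per LSS count (vertical axis, from 0) in each library of HepG2 and Huh7 with UBL5 siRNA or Ctrl-siRNA, with points for libraries and lines for the mean of 3. UBL5 siRNA libraries lie between 3.82 and 5.54 in HepG2 and between 2.09 and 2.26 in Huh7, above the Ctrl-siRNA libraries of their line.

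From lanosterol to cholesterol, 4 of 9 genes rose and none fell in HepG2, where 16.5% of all genes rose and 36.7% were called, and 7 rose and 1 fell in Huh7, where 34.9% rose and 71.3% were called. CYP51A1, MSMO1, SC5D and DHCR7 rose in both lines. MSMO1 is a monooxygenase that acts in the removal of methyl groups between lanosterol and cholesterol. It had 215, 283 and 320.0 CPM with UBL5 siRNA and 127, 172 and 182 CPM with Ctrl-siRNA in HepG2. Its Huh7 levels were 426, 415 and 431 CPM with UBL5 siRNA and 212, 213 and 208 CPM with Ctrl-siRNA. No library overlapped with the other group. MSMO1 rose 1.7-fold in HepG2 (log2 fold change 0.77, SE 0.17, adjusted p = 0.00815) and 2.01-fold in Huh7 (log2 fold change 1.01, SE 0.041, adjusted p = 3.28e-09). CYP51A1, the lanosterol demethylase, had 12.1, 15.4 and 9.18 CPM with UBL5 siRNA and 6.13, 8.45 and 6.65 CPM with Ctrl-siRNA in HepG2, and 17.4, 18.1 and 22.2 CPM with UBL5 siRNA and 7, 10.5 and 12.3 CPM with Ctrl-siRNA in Huh7. The groups did not overlap (log2 fold change 0.79, SE 0.22, adjusted p = 0.0216 in HepG2, and 0.97, SE 0.17, adjusted p = 0.000321 in Huh7), although the levels were low for this pathway. CYP51A1 shares 74.1% of its exon bases with other genes, among them genes on the same strand, so reads of it may have been left out or assigned elsewhere, and its level is uncertain. In HepG2 it did not pass without control library 1 (adjusted p = 0.0731) or KD library 1 (0.053) or 2 (0.0861).

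SC5D, the desaturase of the late steps, had 149, 196 and 227 CPM with UBL5 siRNA and 96.1, 122 and 131 CPM with Ctrl-siRNA in HepG2. In Huh7, SC5D had 159, 159.8 and 169 CPM with UBL5 siRNA and 118, 112 and 123 CPM with Ctrl-siRNA. The groups were apart in both lines, by 1.64-fold in HepG2 (log2 fold change 0.71, SE 0.17, adjusted p = 0.00976) and 1.38-fold in Huh7 (log2 fold change 0.46, SE 0.049, adjusted p = 5.42e-06). DHCR7, the reductase that yields cholesterol in the last step of one branch, had 229, 292 and 286 CPM with UBL5 siRNA and 130.5, 199.6 and 209 CPM with Ctrl-siRNA in HepG2. The Huh7 levels of DHCR7 were 664, 674 and 692 CPM with UBL5 siRNA and 348, 382 and 387 CPM with Ctrl-siRNA. DHCR7 was again higher in every KD library, by 1.5-fold in HepG2 (log2 fold change 0.58, SE 0.18, adjusted p = 0.0295) and 1.82-fold in Huh7 (log2 fold change 0.86, SE 0.05, adjusted p = 3.93e-08). Its call in HepG2 was lost without UBL5 siRNA replicate 2 (adjusted p = 0.0935) or UBL5 siRNA replicate 3 (0.0824).

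Without the replicate block, the remaining late enzymes were called in Huh7 only or in neither line. NSDHL, a dehydrogenase of the methyl removal, rose 1.71-fold in Huh7 (log2 fold change 0.78, SE 0.055, adjusted p = 2.01e-07), and its log2 fold change in HepG2 was 0.35 (adjusted p = 0.098, and 0.0135 with the replicate block). HSD17B7, the ketoreductase that works beside NSDHL, rose in Huh7 by a log2 fold change of 0.27 (adjusted p = 0.0232), but it did not pass without control library 2 (0.0833) or 3 (0.0715) or KD library 1 (0.0779), or in a fit over 12 libraries (0.134). EBP, the sterol isomerase, rose in Huh7 by 0.30 (adjusted p = 0.000639), and 36.4% of its exon bases are shared with another gene of the same strand. In HepG2, HSD17B7 (0.071, adjusted p = 0.76) and EBP (0.19, adjusted p = 0.164) were not called, though every EBP KD library lay above the controls. TM7SF2 and LBR encode sterol reductases for the same reaction. TM7SF2 fell in Huh7 (log2 fold change −0.48, SE 0.084, adjusted p = 0.000315) and had a log2 fold change of −0.29 in HepG2 (adjusted p = 0.127). Every HepG2 KD library of TM7SF2 lay below the controls. LBR, which also anchors chromatin at the nuclear lamina, was not called in HepG2 (−0.095, adjusted p = 0.429) or Huh7 (0.045, adjusted p = 0.505).

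Among the genes that control SREBP2 in the ER, SREBF2 rose in both lines and neither INSIG gene was called. SREBF2 had 316, 373 and 323 CPM with UBL5 siRNA and 219, 261 and 246 CPM with Ctrl-siRNA in HepG2. In Huh7, SREBF2 had 503, 481 and 487 CPM with UBL5 siRNA and 419.9, 452 and 452 CPM with Ctrl-siRNA. The KD libraries lay above the controls in both lines, by 1.4-fold in HepG2 (log2 fold change 0.48, SE 0.10, adjusted p = 0.00556) and by 1.11-fold in Huh7 (log2 fold change 0.15, SE 0.046, adjusted p = 0.0111, and 0.171 in a fit over 12 libraries). SCAP, the escort of SREBP2, rose in Huh7 (log2 fold change 0.34, SE 0.064, adjusted p = 0.000508), and its log2 fold change was 0.19 in HepG2 (adjusted p = 0.256). INSIG2, the isoform of INSIG that is not itself a classical SREBP2 target, had log2 fold changes of −0.0028 in HepG2 (95% interval −0.22 to 0.22, adjusted p = 0.988) and 0.10 in Huh7 (95% interval −0.065 to 0.27, adjusted p = 0.296).

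INSIG1, an ER protein whose gene SREBP2 itself induces, was abundant in Huh7 and nearly absent in HepG2. Its counts were 5633, 5618 and 6521 with UBL5 siRNA and 8177, 6388 and 5825 with Ctrl-siRNA in Huh7, or 278, 279.7 and 303 CPM with UBL5 siRNA and 291, 285 and 292 CPM with Ctrl-siRNA. HepG2 libraries held 8, 14 and 2 counts with UBL5 siRNA and 3, 5 and 3 counts with Ctrl-siRNA. The Huh7 groups overlapped, and INSIG1 did not change detectably there (log2 fold change −0.012, 95% interval −0.10 to 0.079, adjusted p = 0.826) while HMGCS1, SQLE and MSMO1 rose there by 0.98 to 1.31. In HepG2 it was too low for the test. The 24 counts with UBL5 siRNA and 11 with Ctrl-siRNA give a ratio of 2.56 after division by the library totals, with an exact 95% interval of 1.21 to 5.78 that covers counting error only, and the groups overlapped.

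The genes that move sterol within the cell rose or were not called. NPC1L1, the transporter that takes up free sterol at the apical membrane and the target of ezetimibe, had 45.5, 66.4 and 62.9 CPM with UBL5 siRNA and 30.1, 40.0 and 27.8 CPM with Ctrl-siRNA in HepG2. Huh7 libraries held 25.4, 24.9 and 25.6 CPM of NPC1L1 with UBL5 siRNA and 20.6, 20.6 and 21 CPM with Ctrl-siRNA. It was higher in every KD library, by 1.79-fold in HepG2 (log2 fold change 0.84, SE 0.18, adjusted p = 0.00702) and 1.22-fold in Huh7 (log2 fold change 0.29, SE 0.065, adjusted p = 0.00178, and 0.147 in a fit over 12 libraries). STARD4, a soluble sterol carrier, rose 2-fold in Huh7 (log2 fold change 1.0, SE 0.05, adjusted p = 1.42e-08). Its log2 fold change in HepG2 was 0.45 (adjusted p = 0.0568), which passed with the replicate block (0.0038), without both libraries numbered 3 (0.0169) and with DESeq2 (0.0153). NPC1, which exports sterol from lysosomes, rose in Huh7 by 0.28 (adjusted p = 0.000242, and 0.117 in a fit over 12 libraries) and had a log2 fold change of 0.23 in HepG2 (adjusted p = 0.304, and 0.0485 without UBL5 siRNA replicate 1).

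Sterol export split. ABCA1, which loads cholesterol on lipoprotein particles, rose modestly in both lines, while the biliary exporter made of ABCG5 and ABCG8 fell in both. ABCA1 rose by a log2 fold change of 0.42 in HepG2 (SE 0.10, adjusted p = 0.00877) and 0.25 in Huh7 (SE 0.061, adjusted p = 0.00326). ABCG5 had 14.6, 15.7 and 13.2 CPM with UBL5 siRNA and 26.3, 24.1 and 17.3 CPM with Ctrl-siRNA in HepG2. In Huh7, ABCG5 had 1.13, 0.896 and 0.65 CPM with UBL5 siRNA and 2.56, 2.85 and 2.81 CPM with Ctrl-siRNA, from 14 to 23 counts per library with UBL5 siRNA and 56 to 72 with Ctrl-siRNA. All KD libraries were below the controls, at 0.643 of the control level in HepG2 (log2 fold change −0.64, SE 0.17, adjusted p = 0.0193) and 0.327 of it in Huh7 (log2 fold change −1.61, SE 0.22, adjusted p = 4.11e-05). The HepG2 call is weak, since it was lost without Ctrl-siRNA replicate 1 (adjusted p = 0.0728) or 2 (0.0705), or without UBL5 siRNA replicate 1 (0.0547), 2 (0.0512) or 3 (0.072).

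ABCG8, the partner half-transporter, had 15.3, 12.8 and 9.7 CPM with UBL5 siRNA and 22.8, 24.1 and 16.8 CPM with Ctrl-siRNA in HepG2. In Huh7, ABCG8 had 7.64, 8.02 and 9.38 CPM with UBL5 siRNA and 17.6, 16.7 and 16.6 CPM with Ctrl-siRNA. KD libraries were below the controls in both lines, at 0.593 of the control level in HepG2 (log2 fold change −0.75, SE 0.20, adjusted p = 0.0181) and 0.492 of it in Huh7 (log2 fold change −1.02, SE 0.10, adjusted p = 2.08e-06). In HepG2 the call was lost without Ctrl-siRNA replicate 1 (adjusted p = 0.0567) or 2 (0.0714), or without UBL5 siRNA replicate 2 (0.0651) or 3 (0.0604). ABCG5 counts per ABCG8 count were 0.954, 1.23 and 1.36 with UBL5 siRNA and 1.15, 1.0 and 1.03 with Ctrl-siRNA in HepG2, and 0.148, 0.112 and 0.0693 with UBL5 siRNA and 0.145, 0.171 and 0.169 with Ctrl-siRNA in Huh7. The ratio, chosen after the values had been seen, overlapped between the siRNA groups of each line (exact permutation test, two-sided p = 0.5 in HepG2 and p = 0.2 in Huh7).

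MYLIP, a ubiquitin ligase that LXR induces and that marks lipoprotein receptors for destruction, had 9.44, 11 and 10.7 CPM with UBL5 siRNA and 15.1, 15.7 and 17 CPM with Ctrl-siRNA in HepG2. In Huh7, MYLIP had 18.1, 19.2 and 17.4 CPM with UBL5 siRNA and 24.7, 21.8 and 27.4 CPM with Ctrl-siRNA. The groups did not overlap in either line, and MYLIP fell to 0.65 of the control level in HepG2 (log2 fold change −0.62, SE 0.13, adjusted p = 0.00721) and to 0.74 of it in Huh7 (log2 fold change −0.43, SE 0.091, adjusted p = 0.00115). It kept its call in each line without any single library. Thus 3 of the 4 LXR-driven members fell in both lines and ABCA1 rose, where 16.4% of all genes fell in both and 14.5% rose in both. Of the 3, ABCG5 and ABCG8 lost their HepG2 call without some single libraries, as given above.

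**Figure D4:**
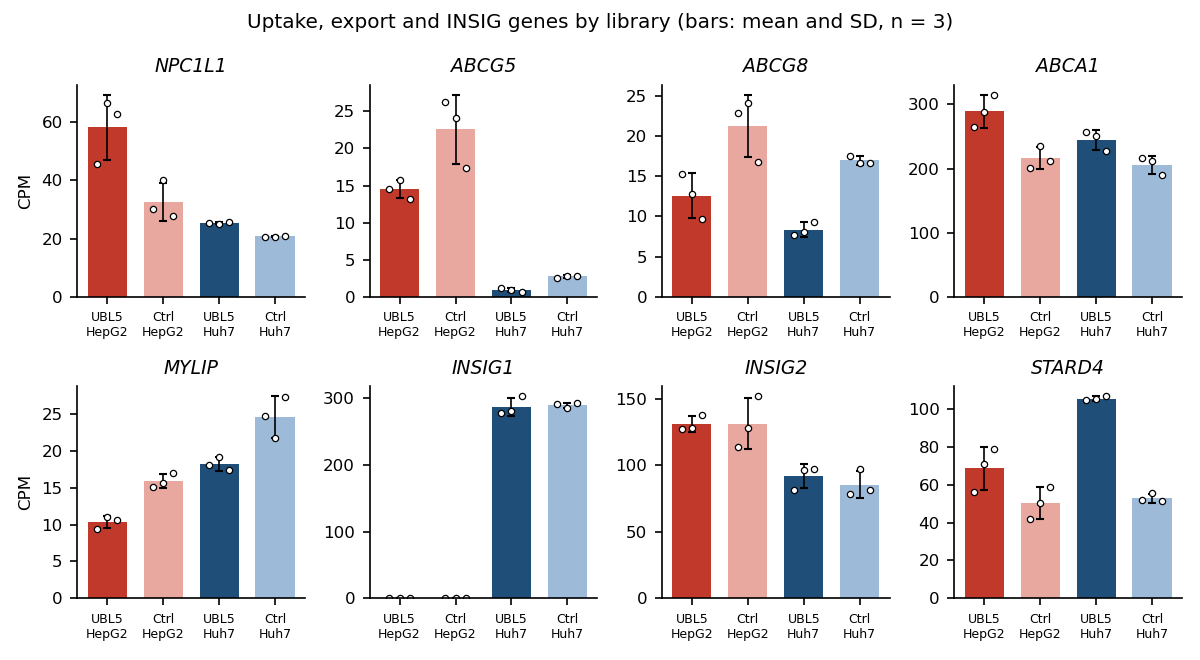
Level in CPM (vertical axis, starting at 0, own scale in each panel) of uptake, export and INSIG genes in the UBL5 siRNA and Ctrl-siRNA libraries of HepG2 (reds) and Huh7 (blues), with bars for the mean, whiskers for the SD and points for the 3 libraries. ABCG5, ABCG8 and MYLIP are lower with UBL5 siRNA in both lines, and INSIG1 is near 0 in all HepG2 libraries.

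Whether the lines responded unequally was asked with an interaction term (HepG2 effect minus Huh7 effect) over all 12 libraries. It was called for 4 of 30 members, all positive, where 9.88% of 15668 genes were positive, 11.7% negative and 21.5% called in either direction (11.5%, 14.7% and 26.2% of the protein-coding genes). ABCG5 fell less in HepG2 than in Huh7 (difference 1.0, SE 0.29, adjusted p = 0.0226). PMVK fell in Huh7 and was not called in HepG2 (difference 0.51, SE 0.15, adjusted p = 0.0242). FDPS rose in HepG2 and was not called in Huh7 (difference 0.41, SE 0.13, adjusted p = 0.0426). SREBF2 rose more in HepG2 (difference 0.36, SE 0.11, adjusted p = 0.0326). At an unadjusted p under 0.05, 11 of 30 members differed, beside 5240 of 15668 genes. With the replicate block, 7 differences were positive and 7 negative, where 1949 of 15668 genes were positive and 2389 negative. Among members, the negative ones were STARD4 (−0.52, adjusted p = 0.00144), SQLE (−0.41, 0.00212), MVK (−0.37, 0.0103), NSDHL (−0.39, 0.0126), ACAT2 (−0.29, 0.0164), MSMO1 (−0.21, 0.036) and LSS (−0.38, 0.0446). The positive ones added to the 4 were NPC1L1 (0.58, adjusted p = 0.0189), SC5D (0.27, 0.0208) and INSIG1 (1.29, 0.0364). The INSIG1 difference was 1.40 (adjusted p = 0.0577), on 2 to 14 counts per HepG2 library, and it also passed with DESeq2 (0.0279).

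Each of these 4 differences lost its call without some single library. SREBF2 was lost without HepG2 Ctrl-siRNA replicate 1 (adjusted p = 0.0602), HepG2 UBL5 siRNA replicate 2 (0.0768), Huh7 Ctrl-siRNA replicate 2 (0.0816) or 3 (0.0691), or Huh7 UBL5 siRNA replicate 1 (0.0525), 2 (0.0791) or 3 (0.0677). FDPS was lost without HepG2 Ctrl-siRNA replicate 1 (0.071), HepG2 UBL5 siRNA replicate 2 (0.0833) or 3 (0.0897), Huh7 Ctrl-siRNA replicate 1 (0.0928) or 2 (0.106), or Huh7 UBL5 siRNA replicate 1 (0.0795), 2 (0.0732) or 3 (0.102). The ABCG5 difference did not pass without Huh7 Ctrl-siRNA replicate 2 (0.0515) or Huh7 UBL5 siRNA replicate 2 (0.0534) or 3 (0.0764). For PMVK these were Huh7 Ctrl-siRNA replicate 3 (0.0618) and Huh7 UBL5 siRNA replicates 1 (0.0652) and 3 (0.0553).

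Control levels of the pathway differed widely between the lines. Between Ctrl-siRNA libraries, 7 members were higher and 14 lower in HepG2 than in Huh7 of 30 tested, where 31.7% of 15668 genes were higher, 32% lower and 63.7% called in either direction (35.3%, 36.6% and 71.9% of the protein-coding genes). The HepG2 controls of 6 members lay wholly above and those of 15 wholly below the Huh7 controls, beside 33.3%, 35.5% and, for either, 68.8% of all genes. Line cannot be told apart from anything else that differed between the cultures. HMGCS1 had 176, 233 and 234 CPM in HepG2 and 1834, 1820.0 and 1706 CPM in Huh7 controls when all 12 libraries were scaled together, or 0.12 of the Huh7 level (log2 fold change −3.06, SE 0.15, adjusted p = 4.69e-10). EBP had 45.9, 52.2 and 54.1 CPM in HepG2 and 226, 215 and 191 CPM in Huh7 controls (log2 fold change −2.05, SE 0.08, adjusted p = 6.78e-11). PMVK had 14.7, 12.2 and 16.1 CPM in HepG2 and 48.6, 47.3 and 50.7 CPM in Huh7 controls (log2 fold change −1.77, SE 0.10, adjusted p = 3.85e-09). The lines did not overlap for any of these 3 genes.

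INSIG1 was the extreme, with 0.119, 0.218 and 0.105 CPM in HepG2 and 286, 279.5 and 283 CPM in Huh7 controls. The sums of 11 counts in HepG2 and 20390 in Huh7 make it 2130 times as abundant in Huh7 (exact 95% interval 1190 to 4268, counting error only). Of 5123 genes with a mean count of at least 1000 in Huh7, 30 had a mean below 20 in HepG2, and INSIG1 was 1 of them. INSIG2 had 118, 133 and 160.3 CPM in HepG2 and 77.1, 95.2 and 78.8 CPM in Huh7 controls, 1.64-fold higher in HepG2 (log2 fold change 0.71, SE 0.11, adjusted p = 8.58e-05). So the INSIG transcripts of HepG2 were almost all INSIG2, and those of Huh7 mostly INSIG1.

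ABCG5 went the other way, with 27.2, 25.1 and 18.3 CPM in HepG2 and 2.52, 2.8 and 2.72 CPM in Huh7 controls, which is 8.78-fold higher in HepG2 (log2 fold change 3.13, SE 0.18, adjusted p = 3.27e-09). ABCG8, its partner, had 23.6, 25.1 and 17.7 CPM in HepG2 and 17.3, 16.4 and 16.1 CPM in Huh7 controls (log2 fold change 0.41, SE 0.16, adjusted p = 0.0378), a difference that did not pass without HepG2 Ctrl-siRNA replicate 1 (0.0851) or 2 (0.141) or Huh7 Ctrl-siRNA replicate 1 (0.0541), 2 (0.078) or 3 (0.0815). TM7SF2 (2.01-fold), NPC1L1 (1.68-fold) and NPC1 (1.56-fold) were also higher in HepG2, with adjusted p = 2.97e-06, 0.000508 and 0.000744. FDPS (0.512), DHCR7 (0.515), LSS (0.571) and SREBF2 (0.585) were at these fractions of the Huh7 level, with adjusted p = 7.63e-07, 4.84e-05, 4.98e-06 and 8.68e-07. Of the rest, MVK, MVD, IDI1, LBR, SCAP and MYLIP were lower in HepG2, with log2 fold changes from −0.59 to −0.41, and SQLE was higher (0.28). The IDI1 difference did not pass without HepG2 Ctrl-siRNA replicate 1 (0.0838) or Huh7 Ctrl-siRNA replicate 1 (0.0694), nor that of SQLE without HepG2 Ctrl-siRNA replicate 2 (0.101) or 3 (0.142) or Huh7 Ctrl-siRNA replicate 1 (0.0621), 2 (0.082) or 3 (0.0556).

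**Figure D5:**
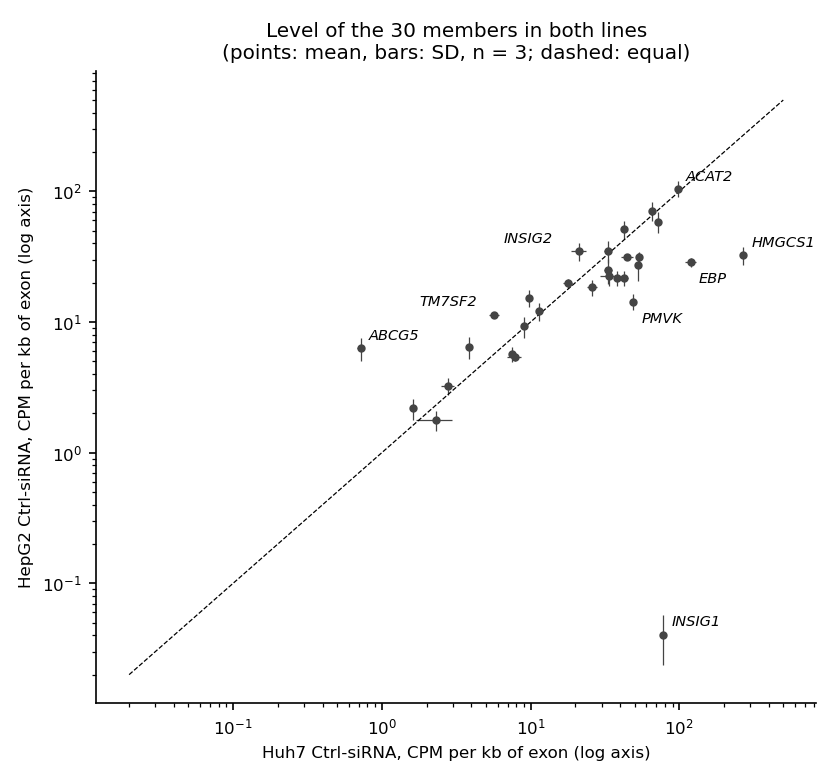
Level of the 30 members in Ctrl-siRNA libraries of HepG2 (vertical axis) against Huh7 (horizontal axis), both in CPM per kb of exon on log axes, with points for the mean, bars for the SD of 3 libraries and a dashed line of equal levels. INSIG1 (0.0403 CPM per kb in HepG2 and 77.5 in Huh7) lies far below the line and ABCG5 (6.33 in HepG2 and 0.72 in Huh7) above it.

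Per kb of exon, the level order of the members in Ctrl-siRNA libraries was led by ACAT2 in HepG2, with 100 ± 13.2 CPM per kb (SD, n = 3), ahead of FDFT1 with 68 ± 11.1 CPM per kb (SD, n = 3) and MSMO1 with 56.2 ± 10.2 CPM per kb (SD, n = 3), and the last 2 did not differ beyond their spread. In Huh7 it was led by HMGCS1 with 275.5 ± 8.72 CPM per kb (SD, n = 3), EBP with 122 ± 9.45 CPM per kb (SD, n = 3) and ACAT2 with 99.4 ± 2.42 CPM per kb (SD, n = 3), all 3 apart. Of 29 pairs of neighbours in that order, 23 lay within their spread in HepG2 controls and 13 in Huh7 controls. The lowest members were INSIG1 in HepG2 and ABCG5 in Huh7.

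Beyond the 30 members, 37 other sterol genes were examined, of which 31 could be tested in each line. In HepG2, 8 rose and 3 fell, and in Huh7, 14 rose and 9 fell, which is near the share of all genes called in each line (36.7% in HepG2 and 71.3% in Huh7), and their median log2 fold change was 0.062 in HepG2 and 0.088 in Huh7. Of 9 genes for cleavage of SREBP and for ER degradation, 5 rose and none fell in HepG2, where 16.5% of all genes rose, and 6 rose and 1 fell in Huh7, where 34.9% of all genes rose and the 7 calls are near the 71.3% called. MBTPS1, the Golgi protease that makes the first cut in SREBP, had 203, 199 and 189.6 CPM with UBL5 siRNA and 103, 105 and 98.7 CPM with Ctrl-siRNA in HepG2 (log2 fold change 0.95, SE 0.077, adjusted p = 0.000117). In Huh7, MBTPS1 had 205, 207 and 204 CPM with UBL5 siRNA and 135, 136 and 143 CPM with Ctrl-siRNA (log2 fold change 0.57, SE 0.044, adjusted p = 3.26e-07). RNF145, an ER ubiquitin ligase of sterol feedback, had 63.5, 78.7 and 77.1 CPM with UBL5 siRNA and 39, 34.6 and 37.3 CPM with Ctrl-siRNA in HepG2 (log2 fold change 0.98, SE 0.11, adjusted p = 0.000372), and 159, 151 and 156 CPM with UBL5 siRNA and 88.8, 81.2 and 84.7 CPM with Ctrl-siRNA in Huh7 (log2 fold change 0.87, SE 0.049, adjusted p = 3.31e-08). Both genes were higher in every KD library.

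VLDLR and LRP8 encode lipoprotein receptors that the MYLIP ligase is known to turn over as proteins, and their transcripts fell with that of MYLIP. VLDLR had 9.26, 8.49 and 6.54 CPM with UBL5 siRNA and 17.3, 18.6 and 14.6 CPM with Ctrl-siRNA in HepG2 (log2 fold change −1.05, SE 0.17, adjusted p = 0.00203), and 18.8, 19.6 and 20.7 CPM with UBL5 siRNA and 33, 42.7 and 41.1 CPM with Ctrl-siRNA in Huh7 (log2 fold change −0.98, SE 0.10, adjusted p = 3.06e-06). LRP8 had 17.9, 18.2 and 19.8 CPM with UBL5 siRNA and 24.9, 30.9 and 27.5 CPM with Ctrl-siRNA in HepG2 (log2 fold change −0.58, SE 0.12, adjusted p = 0.00704), and 28.9, 27.5 and 26.9 CPM with UBL5 siRNA and 48.8, 44 and 49 CPM with Ctrl-siRNA in Huh7 (log2 fold change −0.77, SE 0.067, adjusted p = 1.02e-06). The groups of both receptors were apart in both lines. Of the LXR receptors and further LXR targets, 0 of 5 tested genes were called in HepG2 by edgeR, where 1 had an unadjusted p under 0.05 and DESeq2 called 1 (adjusted p = 0.0104), beside 36.7% of all genes called, and 2 rose and 3 fell of 6 in Huh7, beside 71.3% of all genes. The 2 that rose in Huh7 were RXRA and ABCG1. Those that fell there were the LXR receptor genes NR1H2 (log2 fold change −0.35, adjusted p = 0.00262) and NR1H3 (−0.20, 0.00925), and LPCAT3 (−0.30, 0.008). All were named after their values had been seen. ABCG1, which exports sterol to lipoprotein particles, had 25.9, 25.9 and 25.1 CPM with UBL5 siRNA and 8.1, 10.5 and 10.5 CPM with Ctrl-siRNA in Huh7, with no overlap (log2 fold change 1.41, SE 0.10, adjusted p = 2.02e-07), and was not tested in HepG2.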

How the data were processed

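The authors counted reads per gene with featureCounts, after alignment by STAR 2.7.6a to GRCh38, demultiplexing by bcl2fastq and quality control by FastQC 0.11.9; the version, annotation and strand setting of the counting are not given in the sources used here. The deposited tables hold raw counts of the 6 libraries of each line. Each of the 12 columns of counts was matched to 1 sample by its name, which left 0 unmatched. The other columns (mean normalized count, log2 fold change, its error, test statistic, p-value and adjusted p-value) hold the authors' own comparison, made with DESeq2 1.30.0, and were not used.

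The tools were edgeR 4.0.16 in R 4.3.3 (with limma 3.58.1), DESeq2 1.42.0 for an alternative fit, and scipy 1.17.1, pandas 2.3.3, numpy 2.4.6 and matplotlib 3.10.9 in Python 3.11.15. After filterByExpr (a count minimum of 10 and a total of 15) and TMM scaling, genes were tested within each line by the quasi-likelihood F test, with Benjamini-Hochberg adjustment over all genes tested and a threshold of 0.05. The difference between lines and the Ctrl-siRNA levels were tested in a fit over 12 libraries. CPM values within a line were scaled within that line. The steps were tested on simulated data.

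The members and gene lists were chosen with earlier results of these data known. Values of every library are given for members called in both lines in one direction with an absolute log2 fold change of at least 0.5 in either line, called for the difference between lines, or tested in 1 line, and for other sterol genes that changed in 1 direction in both lines with at least 0.5 in both. Replicate numbers were checked for pairing on the deviations from the group means. Over 9405 genes with a mean of at least 10 CPM, same-numbered HepG2 libraries correlated at 0.408, 0.319 and 0.336, so the blocked fit is given where it changes a call. Over all 15755 genes the values were 0.124, 0.11 and 0.0729. Coordinates and exon overlap are from GENCODE release 44 on GRCh38 and promoters from RefSeq on GRCh38.p14. At these depths, counting error limits the genes with few counts, chiefly INSIG1 in HepG2 and ABCG5 in Huh7, and the spread between libraries limits the others.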

Additional observations from a re-analysis of the deposited data

Results flagged for a closer look

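The effect of UBL5 siRNA differed between the lines by the interaction test for 4 of 30 members, beside 21.5% of all genes. The 4 are listed for that reason. Each lost its call without some single library, and 0 were called without Huh7 UBL5 siRNA replicate 3. The HepG2 effect minus the Huh7 effect was 1.0 for ABCG5 (log2 scale, adjusted p = 0.0226 by edgeR, n = 3 per group), which fell to 0.643 of control in HepG2 and 0.327 of control in Huh7. It was 0.51 for PMVK (adjusted p = 0.0242), which fell in Huh7. For FDPS it was 0.41 (adjusted p = 0.0426), and for SREBF2 it was 0.36 (adjusted p = 0.0326), and both were higher in 3 of 3 HepG2 KD libraries than in any control. In Huh7, ABCG5 rested on 14 to 23 counts per library with UBL5 siRNA and 56 to 72 with Ctrl-siRNA. Groups of 3 libraries were not examined for single outlying values.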

How the results depend on the processing

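Results were recomputed with DESeq2, with RLE size factors, without the filter on low counts, with the replicate number as a block, in a fit over 12 libraries, without each library in turn, and without both HepG2 libraries numbered 3, the last chosen after the data had been seen. Of 871 recomputed values of the 66 calls on single members, 809 kept call and direction, 62 kept the direction without the call and 0 turned round, and 45 recomputed values of uncalled results were called. Leaving out 1 library gave 9 to 14 rising and 2 to 4 falling members in HepG2, where 1834 to 3378 of all genes rose and 1985 to 3892 fell. It also gave 0 to 6 positive and 0 to 7 negative differences between the lines, where all genes gave 1123 to 2107 and 1342 to 2192. The negative differences numbered 3 with DESeq2 (1985 of 15781 genes), 7 with the replicate block (2389 of 15668) and 1 without both HepG2 libraries numbered 3 (2336 of 15711). The positive ones numbered 7 with the block (1949 of 15668). The block changed no other count of members by more than 1.5 times (16 rises and 4 falls in HepG2, 19 and 6 in Huh7). With it, 6262 of 16965 genes rose and 6410 fell in Huh7. Same-numbered Huh7 libraries correlated at 0.438, 0.0625 and 0.567. Libraries 1 and 3 correlated best with their own number, while UBL5 siRNA library 2 correlated at 0.0758 with Ctrl-siRNA library 1. Whether Huh7 libraries were paired by number was thus not settled. In the fit over 12 libraries, which shares one spread, 15 members rose in Huh7, where 4173 of 15668 genes rose. In Huh7, SREBF2 (adjusted p = 0.171), HSD17B7 (0.134), NPC1 (0.117) and NPC1L1 (0.147) were not called in that fit.

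Values near 0 changed sign. INSIG2 in HepG2 was 0.033 with DESeq2, 0.024 with RLE, 0.021 without the filter, 0.0065 with the replicate block, 0.0021 in the fit over 12 libraries, 0.092 without both libraries numbered 3 and −0.095 to 0.12 without single libraries. FDPS in Huh7 was 0.013 with DESeq2, 0.0038 with RLE, 0.0046 without the filter and −0.053 to 0.031 without single libraries. INSIG1 in Huh7 was 0.0099 with DESeq2, 0.00040 with RLE, 0.00060 without the filter and −0.043 to 0.022 without single libraries. The HMGCS1 difference between lines was 0.0073 with DESeq2, 0.0062 with RLE and −0.15 to 0.15 without single libraries. HSD17B7 in HepG2 ran from −0.037 to 0.17, MVD in Huh7 from −0.040 to 0.16 and LBR in Huh7 from −0.0037 to 0.11 without single libraries. The cause was not tested. CYP51A1, HMGCS1, EBP and ACAT2 overlap other genes, the spread between HepG2 libraries was larger than between Huh7 libraries, and transcripts say nothing of protein or sterol level.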

Other observations

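SOAT2, which esterifies cholesterol in hepatocytes for storage and secretion, was named after its values had been seen. It had 34.1, 41.9 and 40.4 CPM with UBL5 siRNA and 79.5, 122 and 106 CPM with Ctrl-siRNA in HepG2, where every KD library lay below every control (log2 fold change −1.40, SE 0.16, adjusted p = 0.000378). In Huh7, SOAT2 had 14.2, 14.9 and 16.1 CPM with UBL5 siRNA and 16.8, 15.7 and 18.1 CPM with Ctrl-siRNA, which overlapped (log2 fold change −0.16, SE 0.087, adjusted p = 0.124), and the lines differed (difference −1.22, SE 0.20, adjusted p = 0.000952). SOAT1, the form of the enzyme found in most tissues, fell in Huh7 (log2 fold change −0.55, adjusted p = 2.5e-06) and not detectably in HepG2 (−0.13, adjusted p = 0.318). RXRA, the partner of LXR, rose in Huh7 (1.34, adjusted p = 5.06e-09), and its log2 fold change in HepG2 was 0.36 (adjusted p = 0.0514). TMEM97, an ER protein that binds sterol, rose in HepG2 (0.31, adjusted p = 0.0118) and in Huh7 (1.0, adjusted p = 1.44e-08). These genes were also chosen after their values had been seen.

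Within HepG2, library 1 had the lowest level of 17 of the 19 synthesis enzymes among the Ctrl-siRNA libraries and of 12 of 19 among the UBL5 siRNA libraries. In Huh7, library 1 had the lowest level of 7 of 19 with UBL5 siRNA and 6 of 19 with Ctrl-siRNA.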
